A study of Homo sapiens with 13 samples.

Results

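The regions described here are the FOXA1 peaks on the distal long arm of chromosome 5. They are all listed peaks that start at position 120000000 of chromosome 5 or beyond (genome build hg19), without those that start between 123600000 and 124800000. The members number 1033 of 54855 peaks in the human endometrial cancer cell line Ishikawa and 401 of 13252 peaks in the endometrial cancer cell line Hec1A, which is 1434 of 68107 in both lists. The segment was chosen by measured values of Hec1A, namely a raised local background of its peaks from 120 Mb onwards. Hec1A values of the segment are therefore a description and support nothing. Whether Ishikawa values entered the choice is not known. The interval left out was dense in Ishikawa peaks, at 55.8 per Mb, so Ishikawa values of the segment depend on leaving it out.

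FOXA1 was mapped by chromatin immunoprecipitation and sequencing (ChIP-seq) with a rabbit antibody in 6 Ishikawa and 3 Hec1A libraries, and 2 input libraries of sheared chromatin are labelled for each line. No treatment or genotype is labelled for either line, and both lines are established cultures. The libraries of a line were pooled before peaks were called, which gave 1 list per line, from 343739762 Ishikawa tags and 143055568 Hec1A tags. A tag is the mapped end of a sequenced fragment. With 1 list per line no value below has a replicate error and no difference was tested. Intervals of shares are 95% Wilson intervals, which cover counting error and treat peaks as independent.

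FOXA1 is a forkhead transcription factor of the pioneer class, which can bind its sites on nucleosomes and open the chromatin around them for other factors. In hormone-responsive epithelia such as breast and endometrium it is known for making sites accessible to steroid receptors, mostly at enhancers away from gene starts. Distal 5q carries, in the gene order of RefSeq (GRCh38.p14), the cytokine genes IL3, CSF2, IL5, IL13 and IL4, and then EGR1, an early response transcription factor. The clustered protocadherins, which encode cell adhesion proteins, come next, followed by NR3C1, which encodes the glucocorticoid receptor. Further along lie the receptor kinase genes CSF1R, PDGFRB, FGFR4 and FLT4. These genes were not matched to peaks, because no hg19 annotation or sequence was used here, and sites are named by hg19 position.

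Hec1A peaks were denser in the segment than in the rest of chromosome 5, and Ishikawa peaks were not. Over 59.5 Mb the segment held 6.74 Hec1A peaks per Mb, against 2.68 per Mb in the rest of chromosome 5 (312 peaks over 116 Mb), a ratio of 2.52. Ishikawa had 17.4 peaks per Mb in the segment and 18.6 in the rest (2169 peaks), a ratio of 0.932. The segment therefore held 55.1% of all Hec1A peaks of chromosome 5 and 31.6% of the Ishikawa peaks. Of the whole Hec1A list the segment held 3.03% and the longer rest 2.35%, and of the Ishikawa list 1.88% and 3.95%. A density of the whole list was not computed, so the ratio of 2.52 holds only against the rest of chromosome 5. Per 100 Ishikawa peaks there were 38.8 Hec1A peaks in the segment and 14.4 in the rest.

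The higher Hec1A density was spread along the segment. In its 6 windows of 10 Mb the Hec1A density ranged from 3 peaks per Mb, in the window from 160 Mb, to 9.5 per Mb, in the window from 130 Mb. The 12 windows of the rest ranged from 1.2 to 3.8, so the ranges overlapped only through the window from 160 Mb. That window was also the poorest in Ishikawa, with 5.4 peaks per Mb. The other Ishikawa windows of the segment held 13 to 25.1 peaks per Mb, and the windows of the rest 6.3 to 23.1.

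The local background of a peak is its signal, in tags per 10000000, divided by its local fold, the authors' value for the peak over its surrounding 10000 bp. In Hec1A its median was 1.09 in the segment and 0.686 in the rest, a ratio of 1.59. Over the whole Hec1A list it was 0.810, so the rest of chromosome 5 lay below the list. Local background in Hec1A is the measure the segment was chosen by. The 6 windows of the segment ranged from 1.05 to 1.18 and the 12 of the rest from 0.469 to 0.902. In Ishikawa the median background was 1.28 in the segment and 1.32 in the rest, a ratio of 0.969. Pooled Ishikawa input averaged 5.20 tags per peak in the segment and 5.12 in the rest, and the median fold of Ishikawa peaks over input was 7.56 and 7.77. Hec1A input was not analysed here, and what set the local background was not tested.

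**Figure D1:**
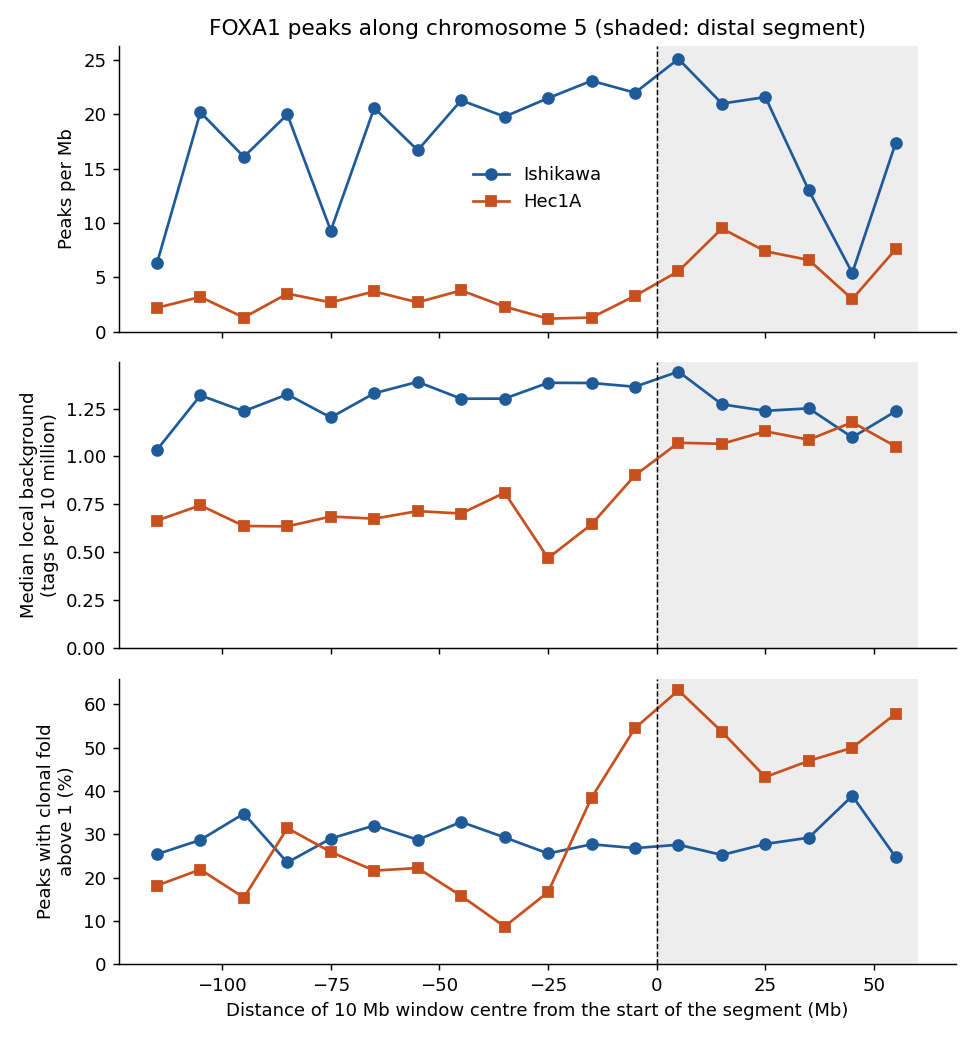
Peaks per Mb, median local background (tags per 10000000) and the share of peaks with a clonal fold above 1 in windows of 10 Mb along chromosome 5, by distance from the start of the segment. Points are windows, circles Ishikawa and squares Hec1A. Hec1A background lies between 1.05 and 1.18 in the shaded segment and between 0.469 and 0.902 elsewhere, while the Ishikawa values of the 2 parts overlap in all 3 panels.

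The limit at 120 Mb is not a sharp step in these values. The Hec1A window from 110 to 120 Mb, outside the segment, had 33 peaks with a median background of 0.902, and the last 2 Mb before the limit had 9 peaks with 1.01. The first 2 Mb inside it had 10 peaks with 0.785. The last Hec1A peak outside, at 119749823 to 119750077, had a background of 1.01, a clonal fold of 1.77 and no partner. The first inside, at 120152763 to 120153017, had a background of 0.965, a clonal fold of 0.61 and an Ishikawa partner. At the interval left out, the nearest Hec1A members had backgrounds of 0.960 before it (123164312 to 123164566) and 1.11 after it (124819582 to 124819836). The first and last Hec1A peaks within that interval had 1.14 and 2.85. In Ishikawa the last peak outside, at 119961802 to 119962154, had a signal of 7.42 and the first inside, at 120085444 to 120085796, one of 13.2 per 10000000. The Ishikawa members on either side of the interval left out had signals of 14.5 and 6.05, and the first and last peaks within it 79.6 and 31.6.

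Clonality separated the Hec1A peaks of the segment into groups of about equal size. The clonal fold is the number of distinct positions expected for a peak's tags over the number they occupy, and the authors kept peaks up to a fold of 2. By the headers 25004 of 80046 candidate Hec1A peaks and 12587 of 352089 candidate Ishikawa peaks were removed above that limit. Peaks with a fold above 1 are called high-clonality here and all others low-clonality. High clonality was found in 210 of 401 Hec1A members, 52.4% (47.5% to 57.2%), against 25% in the rest (20.5% to 30.1%) and 28.8% of the whole Hec1A list. The 6 windows of 10 Mb in the segment ranged from 43.2% to 63.3%, and the window from 110 Mb, just outside it, had 54.5%, the highest of the 12 in the rest. Of the Hec1A members 36.2% reached a fold of 1.5, against 13.8% in the rest. The contrast in clonality was small at stricter limits. At a score of 50 or more the share with high clonality was 16.3% in the segment and 14.2% in the rest. At a local fold of 8 or more it was 29.9% and 27.6%. High-clonality members had low scores for their tag numbers, and 34 of the 210 reached a score of 50. That limit, set after the values were seen, is therefore not independent of clonality. In Ishikawa the share above 1 was 27.3% in the segment (24.7% to 30.1%), 28.8% in the rest and 25.1% in the whole list.

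Most of the additional Hec1A density was in high-clonality peaks that had no Ishikawa peak beneath them. A partner is a peak of the other line that shares at least 1 bp. High-clonality Hec1A peaks with no partner had a density of 3.08 per Mb in the segment (183 peaks) and 0.498 in the rest (58 peaks), a ratio of 6.18. They made up 45.6% of the Hec1A members, against 18.6% in the rest, and 63.5% of the difference in density. Low-clonality peaks had densities of 3.21 and 2.01, a ratio of 1.60. Among these the ratio was 1.58 for peaks with a partner (122 and 151 peaks) and 1.63 for those without (69 and 83).

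The high-clonality members stood near the lower limit of the call. Their median findPeaks score was 37, where the header gives a threshold of 32 tags, although their median signal of 5.21 per 10000000 corresponds to 74.5 tags. The header also states that at most 7 tags per bp were considered. Low-clonality members had a median score of 103 and a median of 106.0 tags. In the rest the same 2 classes had median scores of 38 and 56.

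The 5 Hec1A members of highest clonal fold, between 1.98 and 2, lay far apart. They were at 166026683 to 166026937, 153235585 to 153235839, 161480988 to 161481242, 122148665 to 122148919 and 139498003 to 139498257. Their scores ran from 35 to 50 and their focus ratios, which describe how tightly tags surround the centre, from 0.635 to 0.825. The last of them had an Ishikawa partner and the others had none.

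**Figure D2:**
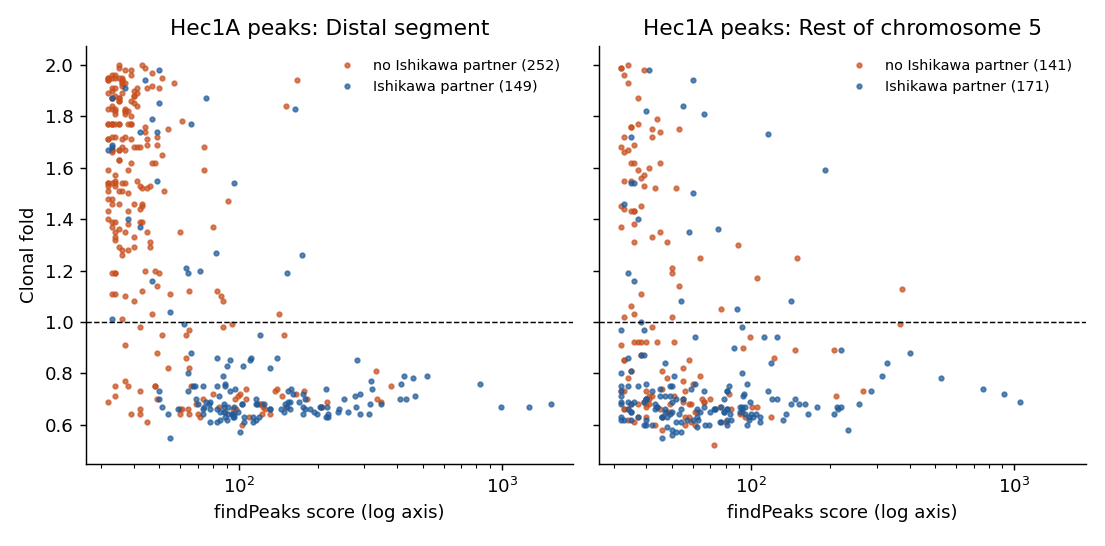
Clonal fold against findPeaks score (log axis) for each Hec1A peak of the segment (left) and of the rest of chromosome 5 (right), coloured by whether an Ishikawa peak overlaps. In the segment 183 of the 210 peaks above the dashed line at 1 have no partner, and 34 of the 210 have scores of 50 or more. Below the line 122 of 191 have one.

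Sharing with Ishikawa was lower among the Hec1A members than in the rest. A partner was present for 149 of 401 Hec1A members, 37.2% (32.6% to 42.0%), against 171 of 312 in the rest, 54.8% (49.3% to 60.2%), and 52.9% of the whole Hec1A list. By score, the shares were apart among low-scoring peaks. At a score under 50, a limit set after the values were seen, 14 of 192 members had a partner, 7.29% (4.39% to 11.9%), against 63 of 150 in the rest, 42.0% (34.4% to 50%). At a score of 50 or more the shares were 64.6% (57.9% to 70.8%, 209 peaks) and 66.7% (59.1% to 73.5%, 162 peaks). For low-clonality peaks they were 63.9% (56.9% to 70.4%) and 64.5% (58.2% to 70.4%). These intervals overlap, which does not show that the shares are equal. Among high-clonality peaks the share with a partner was 12.9% in the segment (8.99% to 18.1%) and 25.6% in the rest (17.3% to 36.3%).

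**Figure D3:**
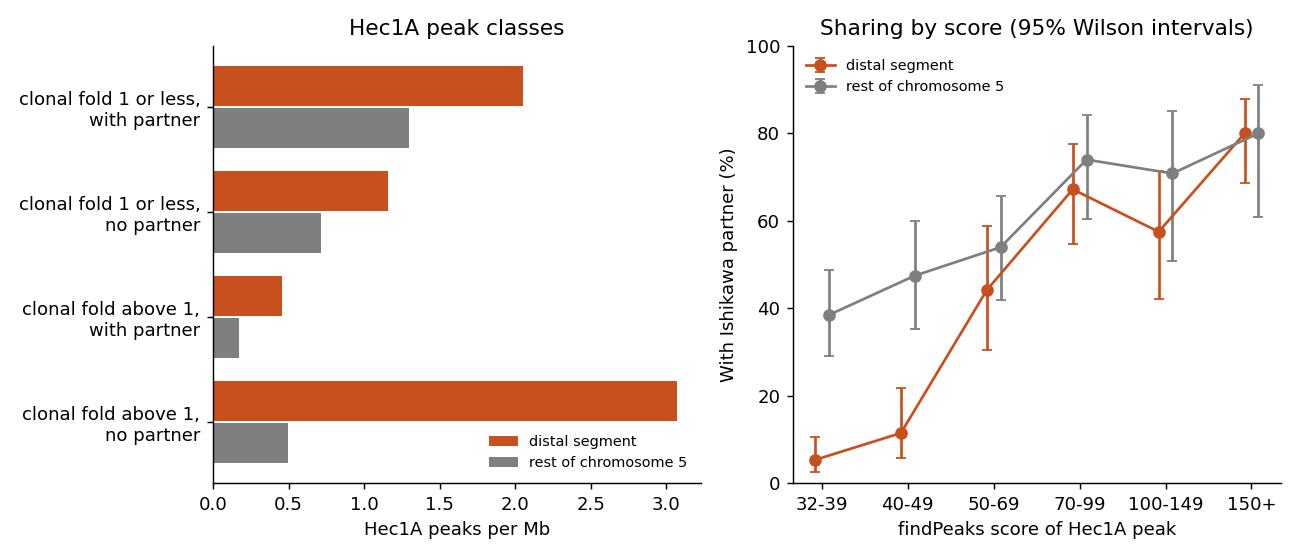
Left, Hec1A peaks per Mb by clonality and partner in the segment and in the rest of chromosome 5. Right, the share of Hec1A peaks with an Ishikawa partner by findPeaks score, with 95% Wilson intervals. At scores from 32 to 39 the share is 5.34% in the segment and 38.5% in the rest, and at 150 and above both are 80%. From 32 to 39 the peaks are unlike: 94.7% of them have high clonality in the segment and 47.3% in the rest.

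Low-scoring Hec1A peaks of the 2 parts differed in composition. From score 32 to 39, 124 of 131 members had high clonality, 94.7%, against 43 of 91 in the rest, 47.3%. The members in this range held a median of 65.9 tags and those of the rest 37.1. The lower quartile of Hec1A signal was 4.68 per 10000000 in the segment and 3.06 in the rest. The medians were 5.94 and 4.26, beside 4.96 over the whole list. Each listed peak passed a local fold of 4, so a higher background requires more tags. The segment was chosen by raised Hec1A background. The contrasts of clonality, tags and signal in this range of scores were therefore partly set by that choice and support nothing.

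Seen from Ishikawa, the share of sites with a Hec1A partner was larger in the segment than in the rest, and near that of the whole list. This was 149 of 1033, 14.4% (12.4% to 16.7%), against 7.88% in the rest (6.82% to 9.09%) and 12.8% of the whole Ishikawa list. The share followed the strength of the Ishikawa peak. At scores of 545 or more, 34.8% of members had a partner (29.2% to 40.9%, 250 peaks) and 19.8% of peaks in the rest (16.5% to 23.6%). At scores under 202 the shares were 2.92% and 1.5%. The segment was chosen on Hec1A values, so these shares are a description. The share was not even along the segment: it was 4.52% in the window from 120 Mb, below that of the rest, and 20.5% in the window from 130 Mb.

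The Ishikawa members had medians close to those of other Ishikawa peaks of the chromosome. Their median signal was 9.31 per 10000000 in the segment, 9.11 in the rest and 9.69 over the whole list. Median local fold was 6.86, 6.53 and 6.93, and median focus ratio 0.831, 0.827 and 0.829. Of the members 32.8% lay within 10 kb of another Ishikawa peak, against 28.9% in the rest. Ishikawa members with a Hec1A partner had a median signal of 19.3 and those without one 8.52. In the rest these medians were 18.9 and 8.72.

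At shared sites the Hec1A signal relative to Ishikawa was higher in the segment, while the local fold was not. Background is signal divided by local fold, so the ratios of signal, background and fold are not independent. The segment was chosen by Hec1A background, and each listed peak passed a local fold of 4. The higher signal ratio is therefore a description and supports nothing. Over 149 overlapping pairs the median log2 ratio of signal, Hec1A over Ishikawa, was -1.32 (quartiles -1.86 and -0.47), against -2.06 in the rest (-2.80 and -1.36, 171 pairs). The medians differ by 0.74, or 1.67-fold. The local background at the same pairs had median log2 ratios of -0.23 and -1.10, which differ by 0.86, or 1.82-fold. The local fold had medians of -0.94 and -0.93, and -0.92 over all 7012 pairs of the genome. Over those 7012 pairs the medians of signal and background were -1.82 and -0.88, between those of the segment and the rest. In 23 of the 149 pairs (15.4%) the signal was higher in Hec1A, against 7 of 171 (4.09%) in the rest. By local fold the counts were 27 (18.1%) and 29 (17.0%). Lists of the lines were scaled separately, so the level of these ratios is not meaningful by itself.

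**Figure D4:**
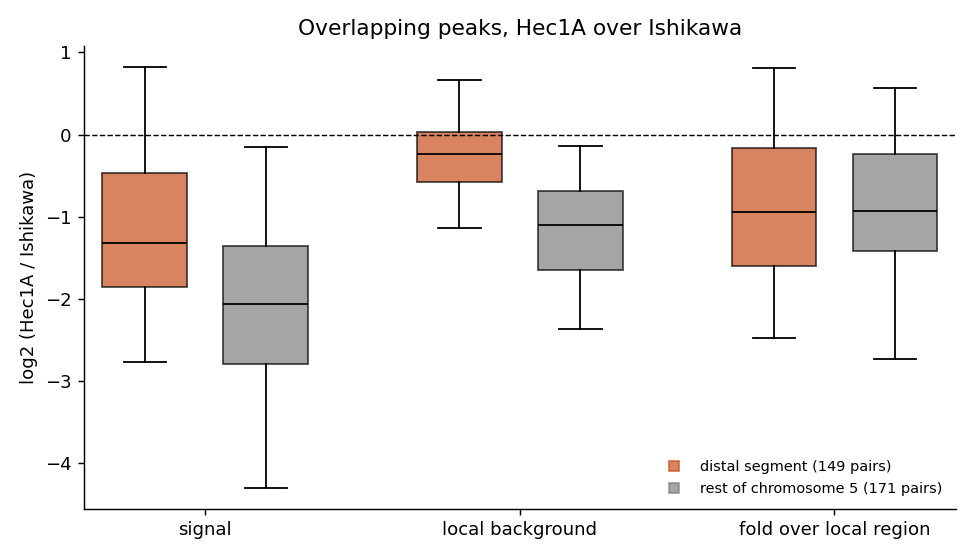
Log2 ratio of Hec1A over Ishikawa at overlapping peaks for signal, local background and local fold. Boxes span the quartiles with the median as a line, and whiskers the 5th to 95th percentiles. Medians of signal (-1.32 and -2.06) and background (-0.23 and -1.10) are apart between the segment and the rest, and those of fold (-0.94 and -0.93) are not. Background is signal divided by local fold, and the segment was chosen by Hec1A background.

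The strongest sites common to both lists, by the mean of both score ranks, lay between 130 Mb and the end of the chromosome. The first was the Hec1A interval 133862504 to 133862758, with local folds of 11.7 in Hec1A and 40.8 in Ishikawa. It was followed by 180288401 to 180288655, with folds of 17.9 and 65.8. Next came a site at 145061278 to 145061532 (folds of 26.7 and 77.7) and one at 145361499 to 145361753 (45.4 and 53.3). The site at 130722555 to 130722809 coincided with the strongest Ishikawa member, with a signal of 230.1 per 10000000 in Ishikawa and 21.6 in Hec1A. The remaining 3 were at 179246055 to 179246309, 172410669 to 172410923 and 180312961 to 180313215. In each of the 8 the peak centres of the 2 lines were at most 9 bp apart. The deposited signal was higher in Ishikawa in each, in lists scaled separately and with different peak widths.

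The pairs of highest ratio held the 4 Hec1A members of score ranks 1, 2, 4 and 5, while their Ishikawa peaks ranked between 74 and 434 of 1033. At 142060525 to 142060779 the signal was 96.0 per 10000000 in Hec1A and 10.3 in Ishikawa, a log2 ratio of 3.22 and the highest of the segment. The Hec1A local fold there was 41.8 and the Ishikawa one 7.11. The Hec1A member of highest score, at 162806633 to 162806887, had signals of 136.7 and 34.0 and folds of 102 and 27.3. At 167513384 to 167513638 the signals were 68.6 and 19.5, at 178214141 to 178214395 they were 42.5 and 13.6, and at 137169205 to 137169459 they were 25.7 and 10.2. The clonal folds of these 5 Hec1A peaks were between 0.67 and 0.79, so none belonged to the high-clonality class.

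The pairs of lowest ratio combined some of the strongest Ishikawa members with Hec1A members of scores from 62 to 104. The median score was 101 among Hec1A members with a partner and 51 among all Hec1A members. At 143037417 to 143037671 the signal was 9.65 per 10000000 in Hec1A and 193.8 in Ishikawa, a log2 ratio of -4.33. At 171847535 to 171847789 the signals were 6.29 and 106.6, with local folds of 4.78 and 64.2. The others were at 157339723 to 157339977, 127270714 to 127270968 and 138052575 to 138052829, with ratios from -3.63 to -3.45.

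The strongest Ishikawa members without a partner gathered beside the interval left out. At 123392666 to 123393018 the Ishikawa signal was 217.1 per 10000000 with a fold over input of 120.3, and the nearest Hec1A peak was 228 kb away. Further ones stood at 123501466 to 123501818, 123497000 to 123497352 and 123145186 to 123145538 on one side, and at 124820842 to 124821194 on the other. That last site had a Hec1A peak 1.31 kb from its centre. Away from this cluster were 157386327 to 157386679, with a signal of 186.9 and a Hec1A peak 40.6 kb away, 134073412 to 134073764, with a signal of 186.7 and one 108 kb away, and 126646978 to 126647330, with 130.3 and one 105 kb away.

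The highest-scoring Hec1A members without a partner had low clonality, unlike most Hec1A members without one. Picking by score favours low clonality, so this contrast was largely set in advance. Among members without a partner, high-clonality ones had a median score of 37 at 73.0 tags. Low-clonality ones had 87 at 86.0 tags. The first, at 135389397 to 135389651, had a signal of 26.4 per 10000000, a local fold of 13.7 and an Ishikawa peak 4.40 kb away. At 156486066 to 156486320 the signal was 24.2, the fold 18.7 and the nearest Ishikawa peak 83.7 kb away. At 173146752 to 173147006 the values were 22.8, 18.1 and 103 kb, and at 141093502 to 141093756 they were 27.8, 17.4 and 20.8 kb. The other 4 were at 120609823 to 120610077, 126542036 to 126542290, 125796751 to 125797005 and 172158428 to 172158682. Clonal folds of the 8 ranged from 0.67 to 0.81, and their focus ratios from 0.821 to 0.948. Of all 252 Hec1A members without a partner, 183 had high clonality, 72.6% (66.8% to 77.8%), against 41.1% of the 141 without one in the rest (33.4% to 49.4%). Of the 252, 95 had an Ishikawa peak centre within 10 kb (37.7%), against 33.3% in the rest, and 65 had none within 50 kb (25.8%), against 17.0%.

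At a scale of 1 Mb the stretch from 141 to 142 Mb was among the densest of both lines. Ishikawa was densest from 141 to 142 Mb and from 179 to 180 Mb, with 35 peaks in each, and Hec1A from 137 to 138 Mb and from 141 to 142 Mb, with 15 in each. The longest stretch without a Hec1A member, 163798213 to 166026682, included the longest without an Ishikawa member, 164636409 to 165685930. Over the 58 whole windows of 1 Mb, Ishikawa counts ran with those of low-clonality Hec1A peaks (Pearson r = 0.63, Spearman rho = 0.60). For high-clonality Hec1A peaks r was 0.39 and rho 0.41. These are descriptions: neighbouring windows share libraries and chromatin, and the difference between the correlations was not tested. Variance over mean across windows was 1.39 for high-clonality Hec1A peaks and 1.97 for low-clonality ones, at means of 3.45 and 3.21 peaks per window. Whether the 2 classes differ in evenness was not tested. For Ishikawa variance over mean was 5.32, at a mean of 16.7. The measure can grow with the mean count, so the Ishikawa value does not show a less even spread.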

How the data were processed

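FOXA1 ChIP-seq peaks of Ishikawa and Hec1A were read from 1 list per line. The submitters' processing notes name hg19, HOMER 4.7.2, SAMtools 1.3.1 and Bowtie 1.1.2. Peaks were found by the authors with findPeaks in factor mode on pooled tags, per the file headers, at a false discovery rate of 0.001, a fold of 4 over the surrounding 10000 bp (the local fold) and a clonal fold of at most 2. For Ishikawa a further limit applied, at 4 times the pooled input. The Hec1A header sets no such limit, its findPeaks command gives no input, and its list holds no input values. By these records Hec1A peaks were not filtered against input, even though that list carries input in its name. The 2 lists were thus filtered differently, and what this did to the contrasts between the lines was not tested. The deposited signal is the tags of a peak per 10000000, the deposited focus ratio is a fraction, the deposited findPeaks score is the caller's own number, unscaled, and the deposited folds are ratios. The deposited p-values were not used. Peak widths differ, at 353 and 254 bp in the headers.

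Local background, tags per peak, overlap, windows and intervals were computed with Python 3.11.15, pandas 2.3.3 and scipy 1.17.1, and the overlap was checked on simulated lists. The length of the rest of chromosome 5 leaves out its largest interval without an Ishikawa peak (3.46 Mb). Sites were named by rank: 8 shared, 8 without a partner per line, 5 pairs of highest and 5 of lowest ratio, 5 of highest clonal fold, and the densest and emptiest stretches. The members and lists were chosen with earlier results of these data known. Libraries were pooled by the authors (per the labels from 2 kits), so no test and no leave-one-out analysis could be made. Gene distances and motifs were not computed, because no hg19 annotation or sequence was used here.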

Additional observations from a re-analysis of the deposited data

Results flagged for a closer look

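Between the segment and the rest of chromosome 5, 3 measures had ratios above 1 in Hec1A and slightly below 1 in Ishikawa. Peaks per Mb in the segment were 2.52 times those of the rest in Hec1A and 0.932 times in Ishikawa. The share of peaks with a clonal fold above 1 had a ratio of 2.09 in Hec1A and 0.949 in Ishikawa. The median local background had a ratio of 1.59 in Hec1A, for which the segment was chosen, and 0.969 in Ishikawa. With 1 pooled list per line these differences were not tested. The Ishikawa ratios are close to 1: the intervals of its clonal shares overlap (27.3%, 24.7% to 30.1%, against 28.8%, 26.9% to 30.7%), and its density ratio was 1.05 among peaks with a local fold of at least 8.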

How the results depend on the processing

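Across 13 results and 74 alternative values, 42 stayed within 1.5 times the reported value (counts and density ratios) or within its 95% interval (shares and medians), 31 moved and 1 reversed. The reversal was the Ishikawa density of the segment over the rest, 1.05 when peaks needed a local fold of at least 8. The Hec1A density ratio was 1.60 at a clonal fold of 1 or less, and between 1.98 and 2.59 in the other alternatives. With local folds of 8 or more, 77 Hec1A and 420 Ishikawa peaks were left in the segment, with median signals of 15 and 16.8, backgrounds of 1.26 and 1.34, and shares above a clonal fold of 1 of 29.9% and 17.1% (27.6% and 18.9% in the rest). There 61.0% of Hec1A peaks (56.6% in the rest) and 11.2% of Ishikawa peaks had a partner, and the median log2 ratio of pairs was -0.96. At a clonal fold of 1 or less, 191 Hec1A peaks were left, signals were 7.41 and 10.9 in Hec1A and Ishikawa, backgrounds 1.17 and 1.38, the Hec1A share with a partner 61.3% (59.8% in the rest) and the pair ratio -1.52. At a Hec1A score of at least 50, chosen after the data were seen, 209 Hec1A peaks had a signal of 8.32, a background of 1.25, a share of 16.3% above a clonal fold of 1 (14.2% in the rest) and of 64.6% with a partner (66.7%). When Ishikawa peaks had to exceed input 8 times, 487 were kept with a signal of 15, and 27.2% of Hec1A and 22.4% of Ishikawa peaks had a partner. With equal peak numbers 21.4% of Hec1A peaks had one (29.5% in the rest). From 130 Mb the Ishikawa share was 17.1% and the Ishikawa background 1.24. Fewer peaks follow from the thresholds. Where only Ishikawa peaks were removed, the Hec1A share with a partner could only fall or stay. For the other changes the cause was not tested. Hec1A peaks near the tag threshold limit what the shares can show. No paired analysis was possible because each list holds pooled libraries, so no replicate could be left out either. Alternatives for gene distances and motifs were not run.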

Other observations

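The interval left out, 1.2 Mb long, held 67 Ishikawa peaks (55.8 per Mb) with a median signal of 24.9 per 10000000 and 15 Hec1A peaks (12.5 per Mb) with 8.88. Of these 15 Hec1A peaks 11 had an Ishikawa partner. At the far end of the chromosome, beyond 180 Mb, the last 0.708 Mb with peaks held 28 Ishikawa and 11 Hec1A members, and 9 of the 11 had a partner. These stretches are short and were picked by position.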
